A study of Homo sapiens with 11 samples.

Results

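Ikaros peaks were described at 9 genes of the p53 and DNA damage kinase pathway: MDM2, MDM4, CDKN1A, RRM2B, ATM, ATR, CHEK1, CHEK2 and PARP1, out of 20020 protein-coding gene names in the annotation. The genes were chosen by name. A peak was taken for a gene if the authors had named it for that gene, if it overlapped the gene body, or if any part of it lay within 1000 bp of an annotated transcription start site. This gave 77 of the 300249 peaks in the series. Of these, 34 were promoter peaks, 23 lay elsewhere in a gene body, 6 lay in a gene body near an internal start site, and 14 lay outside the gene but carried its name.

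Ikaros, the product of IKZF1, is a DNA-binding zinc finger protein of lymphoid cells, and chromatin immunoprecipitation with sequencing (ChIP-seq) recovers the DNA it is bound to. All 4 lines, JM1, REH, 697 and Nalm6, are established human B-cell acute lymphoblastic leukemia lines. JM1 was studied both untreated and after 1 day with the CK2 inhibitor CX-4945 at 20 µM. REH and 697 were left untreated, whereas Nalm6 had received that treatment. CK2 is a protein kinase known to phosphorylate Ikaros. JM1 and REH were precipitated with an antibody from Bethyl, 697 and Nalm6 with one given only as affinity-purified, so line and antibody cannot be told apart between these pairs, and for Nalm6 the treatment joins them, since no untreated Nalm6 library was analysed here. Each condition had 1 peak list, so there was no replicate check and no test. Where 5 values follow each other below, their order is that of untreated JM1, treated JM1, REH, 697, Nalm6. The lists held 37448, 88692, 83563, 19652 and 70894 peaks, with the lowest score at 10 in each. Scores are the authors' own and were not on a common scale. They are given as a percentile, the mid-rank among all peaks of that list, and ranks from lists of different length show no change. Read depth was not analysed here. As a check of the labelled cell type, 9, 11, 10, 5 and 11 of 12 B precursor markers had a promoter peak, as did 2, 3, 3, 2 and 3 of 8 T-cell markers and 4, 6, 6, 3 and 6 of 8 myeloid markers. Beside the shares of all coding genes, 58.8, 81.2, 81.8, 49.5 and 74.4%, the B precursor markers lay below in 697 and near in REH, and the counts do not set B precursor apart from myeloid markers. Peaks do not measure expression.

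In cells with damaged DNA, the kinases ATM and ATR are activated at double-strand breaks and at stalled replication forks, and pass the signal to the checkpoint kinases CHEK2 and CHEK1. These phosphorylations stabilise p53, a transcription factor that MDM2 and MDM4 otherwise hold in check, and p53 then induces CDKN1A, RRM2B and MDM2 itself. PARP1 senses strand breaks and marks them with poly(ADP-ribose). Ikaros recognises DNA with a GGGAA core.

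Sequences are shown first for MDM2, because its peaks differed in whether they covered 2 p53-site matches in its p53-responsive inner promoter. MDM2 has an outer promoter at its canonical start and an inner promoter in its first intron. The 235 bases before the inner start are given on the plus strand of GRCh38 at chr12:68808767-68809001, from the RefSeq promoter table for GRCh38.p14. Capitals mark 2 matches to the p53 binding site, a 20-letter site of 2 adjoining half-sites, with 2 and 3 mismatches.
MDM2 inner promoter: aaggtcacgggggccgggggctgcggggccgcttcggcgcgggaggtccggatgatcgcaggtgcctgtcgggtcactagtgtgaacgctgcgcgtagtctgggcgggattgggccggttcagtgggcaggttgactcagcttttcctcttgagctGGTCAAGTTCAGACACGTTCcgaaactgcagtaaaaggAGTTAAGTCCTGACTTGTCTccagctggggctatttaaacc

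For CDKN1A, the matches with 2 mismatches lay upstream of the canonical start at chr6:36676449-36676468 and chr6:36677331-36677350. They are shown because no peak of any list covered either one.
CDKN1A upper match: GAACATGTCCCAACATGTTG
CDKN1A lower match: GAAGAAGACTGGGCATGTCT

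ATM and ATR are shown as a pair because both promoters carried a peak in treated JM1 and REH and in no other list, while the GGGAA content of the printed stretches differed. The stretches end at the base before the start site, at chr11:108222817-108223066 on the plus strand and chr3:142578734-142578983 on the minus strand. PARP1, at chr1:226408101-226408343 on the minus strand, had a peak in all 5 lists. Capitals mark GGGAA on either strand, which reads TTCCC on the other.
ATM promoter: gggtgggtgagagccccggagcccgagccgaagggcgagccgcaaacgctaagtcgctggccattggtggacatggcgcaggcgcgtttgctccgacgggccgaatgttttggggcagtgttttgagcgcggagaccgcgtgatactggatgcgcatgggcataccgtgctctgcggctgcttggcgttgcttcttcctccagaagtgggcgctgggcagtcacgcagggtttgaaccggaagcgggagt
ATR promoter: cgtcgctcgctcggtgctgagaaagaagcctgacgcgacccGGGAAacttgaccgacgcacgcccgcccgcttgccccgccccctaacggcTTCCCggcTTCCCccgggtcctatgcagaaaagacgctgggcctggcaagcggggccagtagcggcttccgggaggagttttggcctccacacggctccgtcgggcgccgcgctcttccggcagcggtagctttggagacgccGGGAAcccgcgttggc
PARP1 promoter: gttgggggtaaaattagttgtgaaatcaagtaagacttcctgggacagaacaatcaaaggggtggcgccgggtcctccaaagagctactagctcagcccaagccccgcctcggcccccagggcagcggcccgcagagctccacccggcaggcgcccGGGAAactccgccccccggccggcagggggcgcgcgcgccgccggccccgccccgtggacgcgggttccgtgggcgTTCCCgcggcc

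The promoters of all 9 genes carried an Ikaros peak in treated JM1 and in REH. The count was 6 of 9 in untreated JM1, 4 of 9 in 697 and 6 of 9 in Nalm6. Over all protein-coding genes the shares with a promoter peak were 58.8, 81.2, 81.8, 49.5 and 74.4%, so with all deposited peaks a promoter peak was common and the counts lay near these shares. With only peaks scoring at least 20, the members numbered 6 in untreated JM1 (26.6% of all coding genes) and 2 in 697 (39.5%). With the 19652 top-scored peaks of each list they numbered 6, 9, 9, 4 and 1 in the 5 lists. The shares of all coding genes were then 45.3, 60.5, 62.2, 49.5 and 54.4%. MDM2, CDKN1A, RRM2B and PARP1 had a promoter peak in all 5 lists, as did 41.8% of all genes. CHEK1 had one in every list but 697 (13.7% of all genes), and MDM4 in both JM1 lists and REH alone (1.75%). CHEK2 had one in treated JM1, REH and Nalm6 (9.8%), and ATM and ATR in treated JM1 and REH alone (4.32%).

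**Figure D1:**
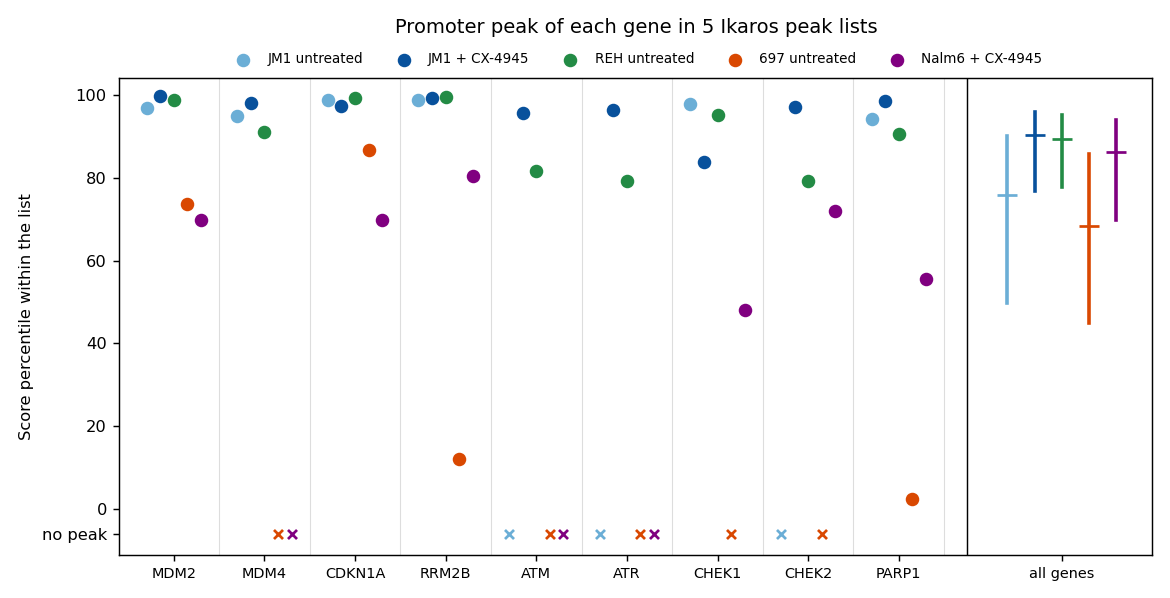
Score percentile of the highest-scored promoter peak of each gene within its own list (y axis, percent), with a cross where a list had no promoter peak; at right, the median (tick) and quartiles (bar) over all protein-coding genes with a promoter peak. The untreated JM1 points lie between 94.1 and 98.8, above that list's upper quartile of 90.2, and the Nalm6 points lie between 48.1 and 80.4, below that list's median of 86.2.

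MDM2 encodes the ubiquitin ligase that marks p53 for degradation and is itself a p53 target. Its promoter peak scored 31, 136, 102, 33 and 27 in the 5 lists. These scores stood at percentiles 96.9, 99.6, 98.7, 73.7 and 69.8 of their lists. MDM2 was thus among the highest-ranked peaks in both JM1 lists and REH and stood lower in 697 and Nalm6. Ranked only among genes with a promoter peak, it was at percentile 56.5 in 697 and 24.4 in Nalm6. In treated JM1 only 361 of 16266 genes with a promoter peak ranked higher than MDM2. The 5 peaks shared a core of 702 bp, chr12:68808057-68808758, from -120 to +581 of the canonical start, covering that start.

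The MDM2 peaks differed at their downstream ends. Their last bases were at +665, +896, +831, +581 and +687 in list order. The first annotated start of the inner promoter is at +825. The 2 p53-site matches printed above lie at +746 to +765 and +784 to +803. Both of these were therefore covered by the treated JM1 and REH peaks and by no other. Further MDM2 matches with 3 mismatches, at +908 to +927 and +1444 to +1463, lay in no peak. The untreated JM1 peak lay wholly inside the treated one, of which it spanned 57.9%. Peak ends depend on the call, and the signal itself was not analysed here.

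**Figure D2:**
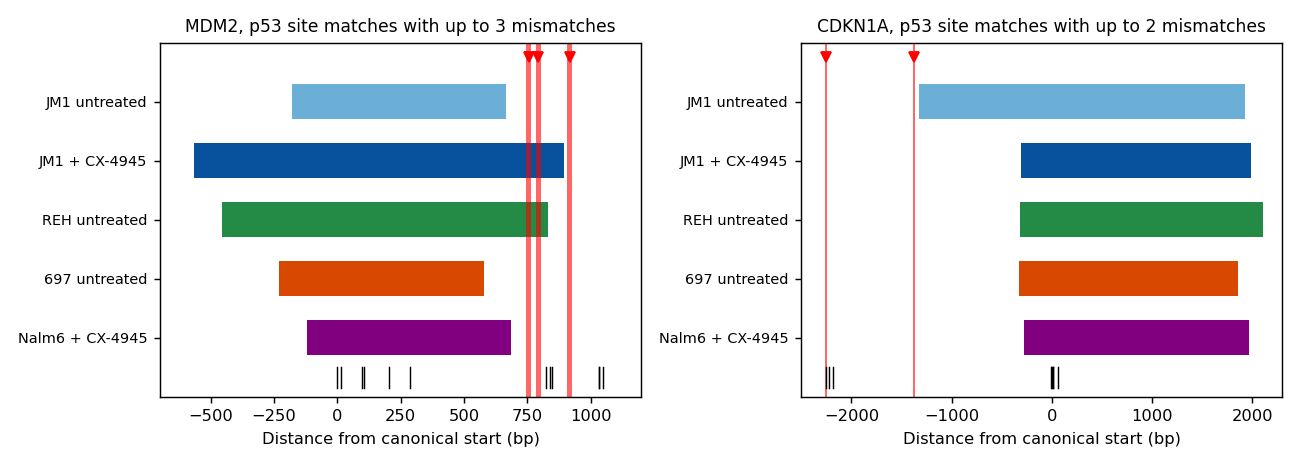
Ikaros promoter peaks (bars, 1 row per list) and p53 binding site matches (red lines and arrowheads) along MDM2 (up to 3 mismatches) and CDKN1A (up to 2 mismatches), in bp from the canonical start; black ticks are annotated start sites. In MDM2 the bars of treated JM1 and REH reach past the matches at +746 and +784, and the match at +908 lies past every bar. In CDKN1A no bar reaches the matches that begin at -2265 and -1383.

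MDM4, the relative of MDM2 that masks the transactivation domain of p53, had promoter peaks in 3 lists. In untreated and treated JM1 they scored 28 (percentile 95.0) and 72 (98.0), and in REH the score was 50 (91.0). No promoter peak was listed for MDM4 in 697 or Nalm6. The JM1 peaks lay side by side more than on top of each other: the untreated one ran from +36 to +1626 and the treated one from -1135 to +536, sharing 501 bp, which was 31.5% of the untreated and 30.0% of the treated peak. The authors classed the untreated JM1 peak as intronic and the other 2 as promoter. A p53-site match with 2 mismatches at +527 to +546 lay wholly in the untreated JM1 peak.

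CDKN1A encodes p21, the inhibitor of cyclin-dependent kinases through which p53 arrests the cell cycle. Its promoter peak scored 38, 65, 112, 43 and 27, at percentiles 98.8, 97.4, 99.1, 86.6 and 69.8. It was the highest-ranked of the 9 genes in 697 and, level with RRM2B, in untreated JM1. CDKN1A also had the widest shared core, 2136 bp at chr6:36678434-36680569, from -280 to +1855, which reached well into the first intron. The authors classed this peak as intronic in all 5 lists, although each covered the canonical start. The start of DINOL, a long noncoding RNA on the other strand, lies 155 bp from that of CDKN1A inside the same peaks.

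Neither of the CDKN1A p53-site matches with 2 mismatches, at -2265 to -2246 and -1383 to -1364, lay in a peak. The untreated JM1 peak began nearest to them, at -1323, while the other 4 began between -332 and -280. That peak covered 1 match with 3 mismatches, at -1111 to -1092. Over the 9 genes, within 3000 bp of the canonical start, there were 7 matches with up to 2 mismatches, in 6 genes, of which 2 were covered by a peak, one each in MDM2 and MDM4. With up to 3 mismatches 4 of 22 were covered. Only peaks taken for the gene were counted, and upstream matches of ATR and RRM2B lay where a peak named for another gene would be missed. Of all coding genes, 14.3% had at least 1 match with up to 2 mismatches, against 6 of the 9 genes, some of which were chosen as p53 targets. With up to 3 mismatches it was 73.9% of all and 9 of 9. The search with mismatches was chosen after the data had been seen, and a match is a description of the letters, not of p53 binding.

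RRM2B encodes the p53-inducible subunit of ribonucleotide reductase, which makes deoxynucleotides for repair. Its promoter peak scored 38, 108, 129, 13 and 33 in the 5 lists, at percentiles 98.8, 99.3, 99.6, 12.2 and 80.4. RRM2B ranked highest of the 9 in REH and in Nalm6 and near the bottom of the 697 list. The shared core was the whole untreated JM1 peak, chr8:102238811-102239715, from -754 to +150. A p53-site match with 1 mismatch, the closest found at any of the 9 genes, lay in the first intron at +2102 to +2121 and in no peak.

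ATM, the kinase activated at double-strand breaks, had promoter peaks in 2 lists, with scores of 52 in treated JM1 (percentile 95.6) and 35 in REH (81.6). They shared 1022 bp, chr11:108222286-108223307, from -781 to +240. This interval also holds the start of NPAT, a regulator of histone genes, which is transcribed the other way from 429 bp upstream. The authors named the treated JM1 peak for ATM and the REH peak for NPAT, so a search of the deposited names alone would miss the ATM promoter peak in REH. Nalm6 had no promoter peak, but a peak at -15.5 kb (percentile 62.0) carried the name of ATM, as did peaks at -16.0 kb in treated JM1 and at -15.6 and -18.5 kb in REH.

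ATR, the kinase activated at stalled forks, had promoter peaks in the same 2 lists, with scores of 57 in treated JM1 (percentile 96.4) and 33 in REH (79.2). They shared 689 bp, chr3:142578360-142579048, covering the canonical start. The intronic site of ATR described below was also present in Nalm6.

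CHEK1, the checkpoint kinase downstream of ATR, had promoter peaks with scores of 33 and 29 in the untreated and treated JM1 lists, at percentiles 97.7 and 83.7. The scores in REH and Nalm6 were 67 and 20, at percentiles 95.2 and 48.1. Of the 6 genes with a promoter peak in both JM1 lists, CHEK1 and CDKN1A stood at the lower percentile in the treated list. Ranked among genes with a promoter peak, RRM2B did so too, at 96.5 and 95.6. How many of all coding genes stood lower in the treated list was not computed. The median percentile of all coding genes with a promoter peak was 75.7 in untreated and 90.2 in treated JM1. In treated JM1, 10441 of 16266 genes with a promoter peak ranked above CHEK1, against 702 of 11775 in untreated JM1. The shared core of 177 bp, chr11:125626132-125626308, lay at +969 to +1145 of the canonical start, near later annotated starts of CHEK1. Only the Nalm6 peak covered the canonical start.

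CHEK2, the checkpoint kinase downstream of ATM, had a promoter peak with a score of 62 in treated JM1 (percentile 97.1), and its scores in REH and Nalm6 were 33 (79.2) and 28 (72.0). All lay upstream of the canonical start, with a shared core of 327 bp at chr22:28742134-28742460, from -640 to -314. Another annotated start of CHEK2, at -602, lies inside this core. The start of HSCB, a cochaperone of iron-sulfur cluster assembly, lies 219 bp from the canonical start on the other strand. It is inside the treated JM1 and REH peaks but outside the core and the Nalm6 peak. The authors gave the peak to HSCB in treated JM1 and REH and to CHEK2 in Nalm6.

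By the authors' names alone, 5, 8, 7, 4 and 6 of the 9 genes would have a promoter peak, against 48.9, 67.0, 66.4, 41.8 and 63.0% of all coding genes. CHEK2 in treated JM1 and ATM and CHEK2 in REH were lost to the neighbour that shares the promoter. RRM2B was lost in untreated JM1, where its promoter peak carried another gene name.

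PARP1 had promoter peaks with scores of 27, 80, 49, 11 and 22 in the 5 lists, at percentiles 94.1, 98.4, 90.6, 2.51 and 55.6. Its peak was thus high in both JM1 lists and close to the lowest score kept in 697. The 461 bp shared core, chr1:226408172-226408632, was the whole 697 peak and lay at -539 to -79, upstream of the canonical start. The treated JM1 peak was the widest at 2957 bp, against 1049 bp for JM1 without treatment, 1223 bp in REH and 1168 bp in Nalm6.

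**Figure D3:**
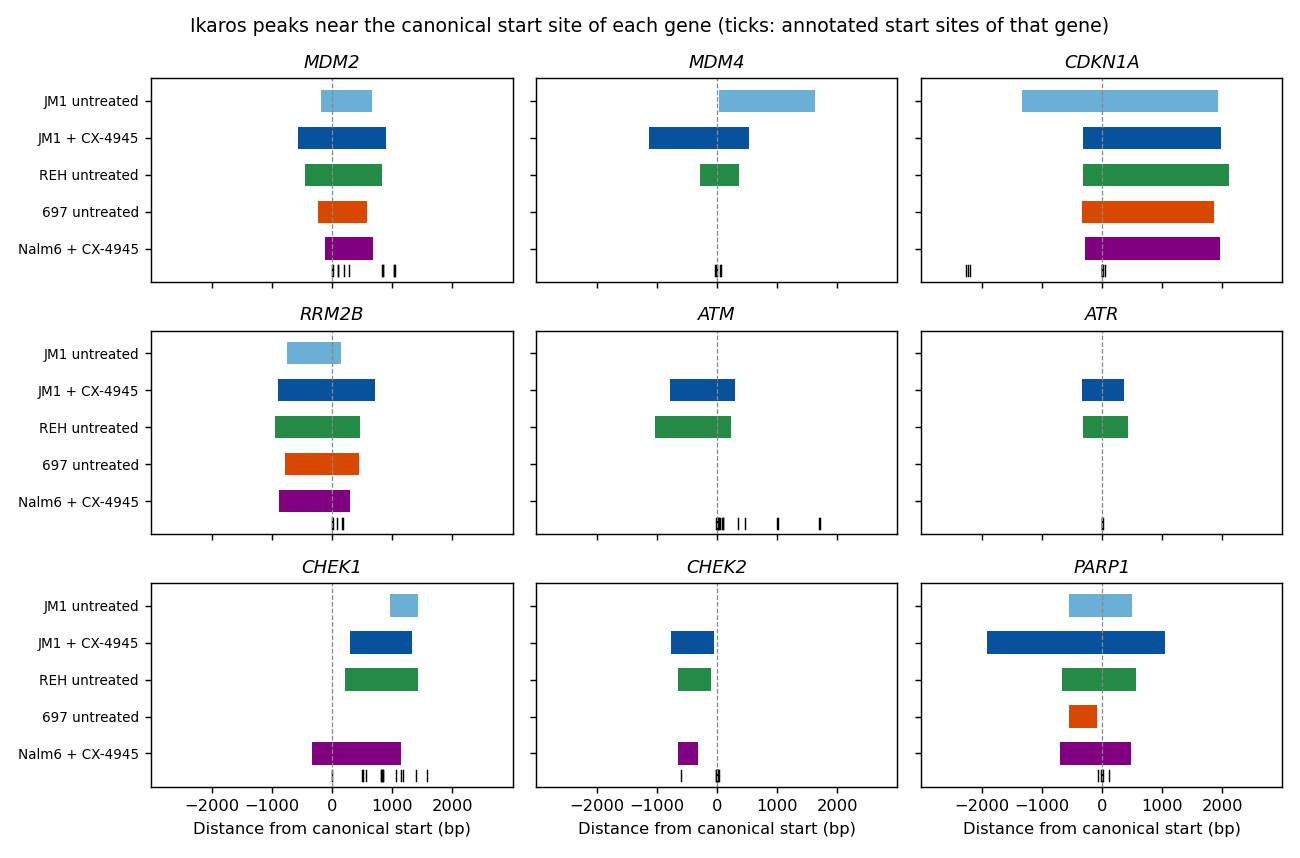
Ikaros peaks within 3000 bp of the canonical start of each gene (x axis, bp along the direction of transcription), 1 row per list, with black ticks for annotated start sites. MDM2, CDKN1A, RRM2B and PARP1 have a bar in all 5 rows, ATM and ATR in treated JM1 and REH alone, and the CHEK1 bars lie mostly downstream of 0.

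For JM1 the series compared cells with and without CX-4945. Of the 9 genes, 6 had a promoter peak in both JM1 lists (58.3% of all genes), and ATM, ATR and CHEK2 had one in treated JM1 alone, 3 of 9 against 23.0% of all genes. None had one in untreated JM1 alone, which held for 0.564% of all genes. The count of 3 was near the background of 2 lists that differ in length. The 3 genes were not among the weakest treated peaks: they stood at percentiles 95.6, 96.4 and 97.1. Of the 2738 coding genes with a treated JM1 promoter peak between percentiles 95 and 98, 16.4% had no untreated JM1 peak. In the same way, ATM, ATR and CHEK2 stood between percentiles 75 and 90 in REH, where 26.3% of genes lacked an untreated JM1 peak and 39.1% lacked a 697 peak. These bands were chosen after the data had been seen.

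Ranked among the genes with a promoter peak in a list, the genes stood high in untreated JM1 and low in Nalm6. Their percentile among such genes ran from 84.4 to 96.5 in untreated JM1 (6 genes, median 92.5) and from 34.6 to 97.7 in treated JM1 (9 genes, median 84.3). It ran from 27.3 to 97.7 in REH (9 genes, median 55.8), from 0.660 to 75.9 in 697 (4 genes, median 30.3) and from 11.2 to 37.8 in Nalm6 (6 genes, median 24.4). The genes ranked in untreated JM1 and in Nalm6 were not all the same: of these lists MDM4 was in the first alone and CHEK2 in the second alone. How many of all coding genes differ as much between these lists was not computed. MDM2 shows the span within a single gene, at 91.4 in untreated JM1 and 24.4 in Nalm6. Line, antibody, treatment and list length all differ between those lists and cannot be told apart.

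Away from the promoters, the 23 gene-body peaks and the 6 near an internal start merged into 19 sites, of which 15 were in 1 list, 2 in 2 lists, 1 in 3, 1 in 4 and 0 in 5. CDKN1A held the site seen in the most lists, chr6:36682461-36687205, from the first intron to the last exon, with 7 peaks in 4 lists. In treated JM1 and REH it was 1 peak of 4427 and 4376 bp (percentiles 83.7 and 80.5). Untreated JM1 had 3 narrow peaks there, the highest at percentile 91.7 in exon 3, and Nalm6 had 2 at percentiles 13.4 and 3.56. Apart from promoter peaks, 697 had no peak in any of the 9 gene bodies.

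ATR had a site in intron 1, chr3:142568408-142569108, centred 9.97 kb from the start. Its scores in treated JM1, REH and Nalm6 were 29, 59 and 14, at percentiles 83.7, 93.5 and 18.9. In REH this intronic peak of ATR outranked the ATR promoter peak, whereas in treated JM1 the promoter peak ranked higher. A second ATR peak, in intron 16, was in treated JM1 alone.

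PARP1 held 8 of the 19 sites, in introns 1, 3, 7, 9, 14 and 17. The 2 seen in both treated JM1 and REH lay in intron 9 (chr1:226379182-226382625) and around intron 14 (chr1:226367946-226373522), with percentiles no higher than 60.6. Around intron 14 the 2 peaks were mostly side by side and shared only chr1:226370474-226370622. A site in intron 7 stood at percentile 74.0 in Nalm6. PARP1 had 10 gene-body peaks over the 5 lists, and of the 3724 coding genes of 25 to 50 kb, with a median of 4, 67.1% had fewer. In the remaining genes each site was in 1 list: 3 sites in CHEK2, 2 each in MDM2 and MDM4 and 1 in CHEK1.

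ATM and RRM2B had no gene-body peak in any list. For ATM, at 146 kb the longest of the 9, this was less usual: 8.35% of the 3665 coding genes of 100 kb or more had none. For RRM2B it was less so, since 27.0% of genes of 25 to 50 kb had none. Leaving out peaks within 1000 bp of the canonical start, the 9 gene bodies had 0.722, 1.81, 1.81, 0 and 0.903 peaks per 100 kb, summed over length. Over all coding genes of 10 kb or more the values in the 5 lists were 1.42, 3.40, 3.22, 0.610 and 2.78.

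**Figure D4:**
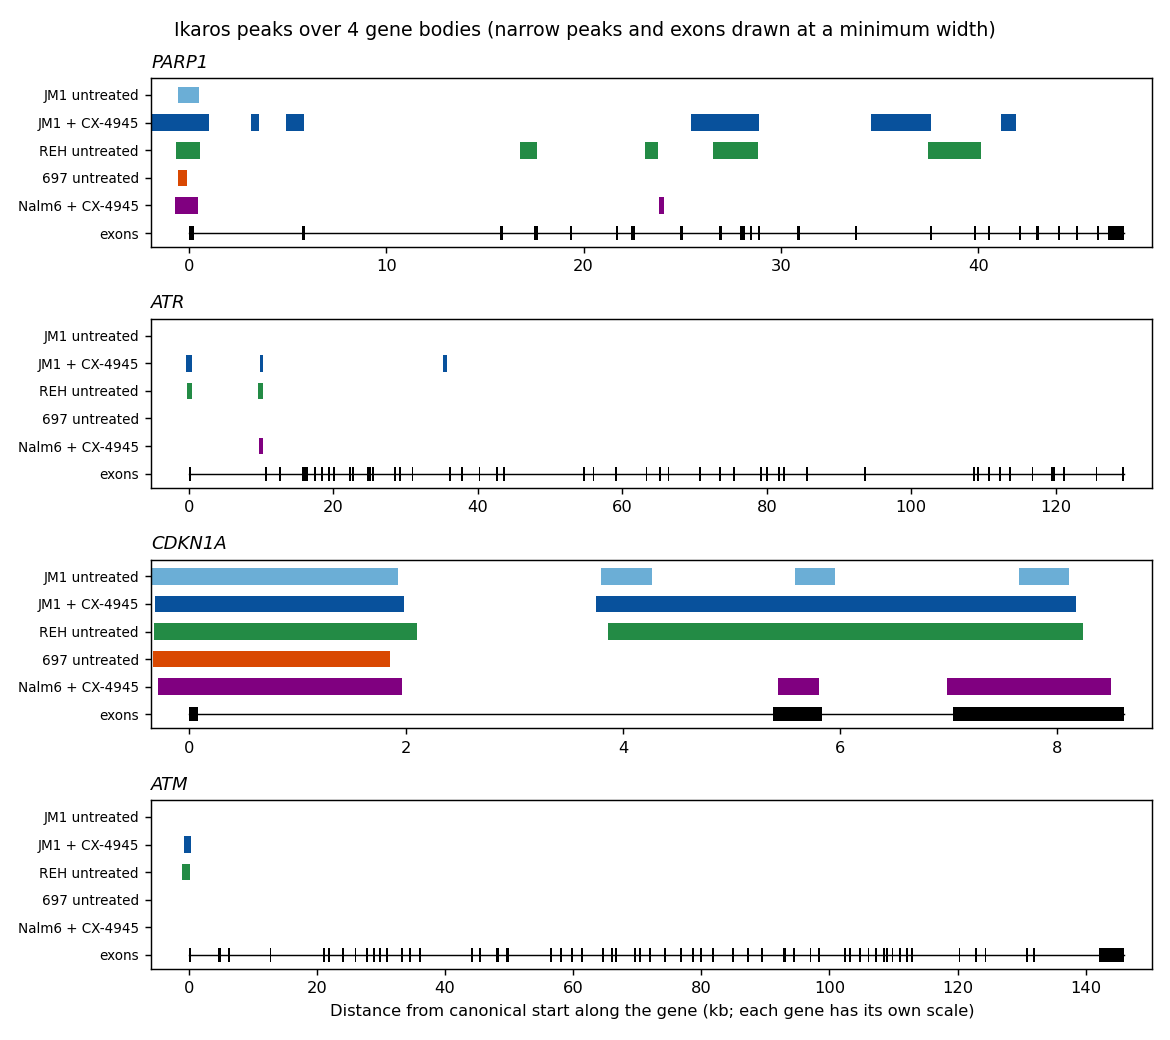
Ikaros peaks (bars, 1 row per list) along PARP1, ATR, CDKN1A and ATM, with exons of the canonical transcript as black boxes; the x axis is the distance from the canonical start in kb and differs between genes. PARP1 has several separate peaks, with gaps between them, in treated JM1 and REH, and ATR has the 3-list site near 10 kb. CDKN1A has broad 3' peaks in treated JM1 and REH, and ATM has only its promoter peaks. Narrow peaks are drawn at a minimum width.

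The GGGAA core was searched on both strands. It was in 65.0% of the 35116 RefSeq promoters of 300 bp (250 bases before to 50 after a start), and in 10 of the 14 promoters of the 8 genes found in that table, that is in at least 1 promoter of every gene but MDM4. RRM2B was not in the table. The longer TGGGAA, which contains GGGAA, was in 24.0% of promoters and in 4 of 14, in MDM2, ATM and CHEK1. ATR had 5 GGGAA matches in its promoter, PARP1 3 and CHEK2 2, while the ATM promoter printed above had 0 up to its start and the MDM2 outer promoter 0. Over the whole promoter peaks the contrast was smaller: ATM had 3 GGGAA matches in treated JM1 and 6 in REH, and ATR had 6 in each. In windows of 500 bp about the centres of the promoter peaks, GGGAA was present in 4 of 6, 8 of 9, 8 of 9, 4 of 4 and 6 of 6 member peaks, against 82.5, 82.6, 82.2, 78.2 and 82.3% of all promoter peaks of those lists, so the members did not stand apart in this respect.

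A further 61 genes of the pathway, in 4 lists, were counted by the same rule. A promoter peak was found for 41, 60, 60, 31 and 53 of the 61 in the 5 lists, and 26 had one in all 5 lists. As shares these were 67.2, 98.4, 98.4, 50.8 and 86.9%, above the shares of all coding genes in each list, by the least in 697. Counted alone, the genes of PARP and single-strand break repair lay below the shares of all coding genes in untreated JM1, 697 and Nalm6.

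Of 22 other p53 targets, 16, 22, 22, 11 and 21 had a promoter peak, and 10 had one in all lists. In untreated JM1 the highest-ranked were FDXR, a mitochondrial ferredoxin reductase (percentile 98.8), and SESN2, a stress-induced regulator of TORC1 (97.7). In 697 they were BBC3, which encodes the BH3-only protein PUMA (99.0), and PHLDA3, an inhibitor of AKT (84.6). DDB2, a sensor of UV lesions, was the 1 target without a promoter peak in Nalm6. The targets with a promoter peak had a median percentile of 81.6 in untreated JM1 (16 genes) and 90.2 in Nalm6 (21 genes). Over all coding genes with a promoter peak the medians were 75.7 and 86.2, and over the members with one, 97.3 and 69.8 (6 genes in each list).

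Of 18 sensors and adaptors of the checkpoint, 11, 18, 18, 9 and 15 had a promoter peak. NBN, a subunit of the complex that recruits ATM to breaks, stood at percentile 99.4 in untreated JM1, and RAD9A, of the clamp that activates ATR, at 94.1. H2AX, the histone phosphorylated around breaks, stood at 98.3 in 697, and the ubiquitin ligase RNF8 at 92.3. ETAA1, which activates ATR, TIMELESS, which protects forks, and RAD50, the partner of NBN, had no promoter peak in Nalm6. The sensors and adaptors with a promoter peak had a median percentile of 86.0 in untreated JM1 (11 genes) and 77.5 in Nalm6 (15 genes), above and below the medians of all coding genes with one, as for the members.

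Of 11 effectors that act on cyclin-dependent kinases or nucleotide supply, 9, 11, 11, 7 and 10 had a promoter peak. The phosphatase CDC25A and the ribonucleotide reductase subunit RRM1 lacked one in untreated JM1. In 697 it was CDK1, CDK2, CCNB1 (cyclin B1) and RRM1 that lacked one, and in Nalm6 CCNB1. The effectors with a promoter peak had a median percentile of 75.7 in untreated JM1 (9 genes) and 83.9 in Nalm6 (10 genes). Of 10 genes of PARP and single-strand break repair, 5, 9, 9, 4 and 7 had a promoter peak. Those with one had a median percentile of 70.8 in untreated JM1 (5 genes) and 86.2 in Nalm6 (7 genes). LIG3, the ligase of that pathway, stood at percentile 88.3 in untreated JM1 and 97.2 in 697. APTX, which repairs abortive ligation ends, stood at 86.0 in untreated JM1, and APLF, a scaffold that binds poly(ADP-ribose), at 94.5 in 697. PARG, which removes poly(ADP-ribose), had no promoter peak in any of the 5 lists, which held for 14.6% of all coding genes. PARP2 and POLB, the repair polymerase, lacked one in Nalm6.

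**Figure D5:**
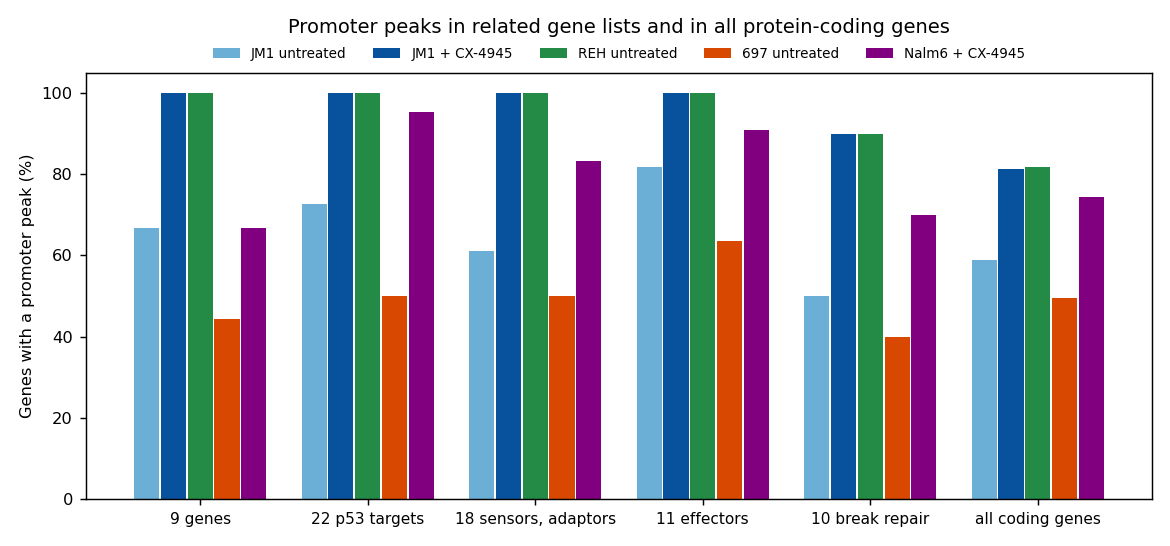
Share of genes with an Ikaros promoter peak (y axis, percent) in each of the 5 lists (colours), for the 9 genes, the 4 related lists and all protein-coding genes. The treated JM1 and REH bars reach 100% in every group except break repair and all coding genes, and the 697 bars are the lowest in each group.

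Among the 26 pathway genes with a promoter peak in all 5 lists, the one whose percentiles were most alike over the 5 lists, by mean absolute difference, was CLSPN for both MDM2 (4.23 percentile points) and CDKN1A (5.23). CLSPN encodes claspin, an adaptor between ATR and CHEK1, and had percentiles of 83.3, 98.2, 97.4, 78.5 and 69.8. For RRM2B it was RAD9A (6.22), at 21.5 in 697 where RRM2B stood at 12.2. For PARP1 it was PMAIP1, which encodes the BH3-only protein NOXA (8.99), at 26.0 in 697 and 52.0 in Nalm6.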

How the data were processed

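Ikaros ChIP-seq peak lists of 5 conditions in human B-ALL lines were analysed, 1 list each. Of 11 libraries, 6 were Ikaros libraries and 5 inputs without a list analysed here. Nalm6 had 2 Ikaros libraries and 1 list, with no statement in the labels of which library gave it. The labels' protocols name BBDuk for trimming, and the submitters' processing notes list GRCh38, HOMER 4.10, MACS2 2.1.1 and Bowtie2 2.3.4.3. What the score means, how peaks were called and against which control is not stated there. Each peak's position, score, class and gene name were made by the authors before deposit, per the file headers.

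Coordinates were used as deposited, with GRCh38 sequence and GENCODE release 44. Every sequence name matched that genome, with 0 peaks past an end. A promoter peak had any part within 1000 bp of any annotated start of the gene, and the highest-scored was used. The canonical start is that of the Ensembl canonical transcript, and offsets count along transcription. Peaks of different lists were merged where they overlapped by at least 1 bp. Python 3.11.15, pandas 2.3.3 and pysam 0.24.0 were used, and the assignment was tested on simulated peaks. RefSeq promoters were matched by symbol (8 of 9 genes). The p53 half-site was also searched without mismatch: 0 of 14 member promoters and 6.63% of all held it.

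No test was possible with 1 list per condition. Members, gene lists and rules were chosen with earlier results of these data known. Named were the 9 genes, their neighbours at a shared peak, the genes of a pathway list without a promoter peak where 4 or fewer, otherwise the 2 highest by percentile, and for each member in all 5 lists the most alike pathway gene. Marker genes are given as counts only, and 1 neighbouring gene is not reported here.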

Additional observations from a re-analysis of the deposited data

How the results depend on the processing

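No paired analysis was possible because each condition had 1 list and no result came from a test. Promoter windows of 500 or 5000 bp, the peak centre instead of any part, the canonical start alone, and the authors' gene names left each member count within 1.5 times its main value. With the names alone the counts were 5, 8, 7, 4 and 6, and with 5000 bp ATR joined the Nalm6 genes (7). Only peaks with a score of at least 20 left 2 genes in 697, MDM2 and CDKN1A (39.5% of all coding genes), and 6 in untreated JM1 (26.6%). With each list reduced to its 19652 top-scored peaks, the number in the shortest list, Nalm6 kept 1 gene (RRM2B; 54.4% of all coding genes) and 34 of the 61 pathway genes, against 6 and 53, and 3 gene-body sites were left, 2 of them in more than 1 list, against 19 and 4, since lower-scored peaks were removed. In JM1 the treated-alone genes numbered 3 under every setting tried, but by the authors' names they were RRM2B, ATM and ATR, without CHEK2. A reciprocal overlap of 50 percent gave 24 gene-body sites. Among promoter-class peaks only, all 34 promoter percentiles were lower, by a median difference of -9.94 points, ranging from -32.7 to -1.41.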
